A study of Homo sapiens with 3 samples.

Results

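Among the lncRNAs sequenced from MDA-MB-231 cells that carried Flag-tagged FAK, 42 transcripts with a database name had at least 10 reads in Input and 0 reads in both the IgG and the Flag-FAK precipitate. They were chosen on those reads, one entry per transcript, from 334 listed lncRNA transcripts, after 10 loci had been left out by the selection rule. The reads that chose them are therefore given as a description and were not tested. Outside those loci, 109 named transcripts had at least 10 Input reads, so the 42 were 38.5% of the transcripts that could have been chosen, and the other 67 had reads in at least one precipitate.

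MDA-MB-231 is a human cell line established from triple negative breast cancer and labelled as p53-mutant. All 3 libraries came from cells transfected with a plasmid for Flag-tagged FAK, the focal adhesion kinase also known as PTK2, and there was 1 library per condition: RNA extracted without precipitation (Input, 10% of the RNA), RNA retrieved with normal mouse IgG, and RNA retrieved with an anti-FLAG antibody (Flag-FAK). The Flag antibody retrieves the exogenous tagged protein, and the untagged FAK of the cells is not its target. The question the precipitates address is which lncRNAs associate with FAK, and the transcripts described here are those for which neither precipitate gave a read. With 1 library per condition there was no replicate check, and the values below compare these libraries and not the conditions.

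RNA immunoprecipitation retrieves RNAs bound directly or indirectly to a protein, and the IgG precipitate measures RNA that adheres to beads and antibody. Long non-coding RNAs are transcripts without a known protein product. Several classes are found among them: host transcripts whose introns release small nucleolar RNAs (snoRNAs), transcripts that start beside a coding gene and run away from it (divergent transcripts, "-DT"), transcripts antisense to a gene ("-AS"), intergenic transcripts ("LINC") and transcribed pseudogenes. FAK itself is a tyrosine kinase of focal adhesions that acts downstream of integrins.

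The 42 transcripts came from 40 loci on 18 chromosomes and carried 41 database names. RefSeq (GRCh38.p14) placed them on 39 genes, 11 by the name itself and 31 by position. By RefSeq class, 35 lay on lncRNA genes, 5 on pseudogenes and 2 on protein-coding genes (ANXA8 and NEMP2). Among them were 4 transcripts of snoRNA hosts (SNHG7, SNHG8, SNHG15 and SNHG30), 6 of genes named as divergent (-DT) and 3 of genes named as antisense (-AS). A further 5 were of LINC genes and 8 of genes with a provisional LOC symbol. These classes follow the gene symbols and not the position of each deposited transcript. The 67 other named transcripts held 8, 5, 11, 10 and 7 transcripts of the same classes, respectively. The snoRNA hosts were counted by the symbol SNHG. The hosts GAS5 and SNHG12, both with precipitate reads, lay in loci left out by the rule and are in neither count. Chromosome 16 held 8 of the 42 and 4 of the 67, and these 8 included 3 SMG1 pseudogene transcripts and both transcripts of LOC101927793. VPS9D1-AS1, also on chromosome 16 and with reads in both precipitates, lay in the loci left out by the rule. The counts for this chromosome therefore do not cover all of its named transcripts.

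Transcript sequences were not used here. The RefSeq windows around the start are shown for SLC9A3-OT1, the locus with the most Input reads on the 42 transcripts after that of the largest one, and for 3 snoRNA hosts. Each window runs from 250 bases before the RefSeq start to 50 after it, 5′ to 3′ on the gene's own strand, and capitals mark the bases inside the span of the deposited transcript. The positions in GRCh38.p14 are chr5:472916-473215 (minus strand) for SLC9A3-OT1, chr9:136728135-136728434 (minus strand) for SNHG7, chr4:118278512-118278811 (plus strand) for SNHG8 and chr17:35567864-35568163 (plus strand) for SNHG30.
SLC9A3-OT1: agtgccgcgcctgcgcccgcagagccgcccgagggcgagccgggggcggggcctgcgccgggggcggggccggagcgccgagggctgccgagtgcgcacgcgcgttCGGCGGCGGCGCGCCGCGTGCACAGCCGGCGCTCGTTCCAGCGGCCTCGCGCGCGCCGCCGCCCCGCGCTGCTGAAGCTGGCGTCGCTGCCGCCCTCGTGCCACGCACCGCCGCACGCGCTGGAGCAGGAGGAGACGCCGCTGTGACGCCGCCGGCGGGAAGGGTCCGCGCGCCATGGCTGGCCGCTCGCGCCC
SNHG7: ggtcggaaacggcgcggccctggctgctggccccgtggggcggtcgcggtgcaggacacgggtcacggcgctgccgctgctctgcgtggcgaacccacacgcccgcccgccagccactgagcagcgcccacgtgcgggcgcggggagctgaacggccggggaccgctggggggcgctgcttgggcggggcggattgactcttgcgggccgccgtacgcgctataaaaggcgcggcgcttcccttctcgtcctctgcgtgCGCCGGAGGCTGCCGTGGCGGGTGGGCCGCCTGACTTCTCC
SNHG8: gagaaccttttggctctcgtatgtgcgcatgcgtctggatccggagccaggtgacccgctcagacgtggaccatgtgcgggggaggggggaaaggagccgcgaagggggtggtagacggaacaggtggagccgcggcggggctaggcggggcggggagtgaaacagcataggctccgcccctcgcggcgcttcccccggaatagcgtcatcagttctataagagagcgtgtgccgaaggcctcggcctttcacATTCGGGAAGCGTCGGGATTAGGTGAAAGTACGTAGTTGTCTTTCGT
SNHG30: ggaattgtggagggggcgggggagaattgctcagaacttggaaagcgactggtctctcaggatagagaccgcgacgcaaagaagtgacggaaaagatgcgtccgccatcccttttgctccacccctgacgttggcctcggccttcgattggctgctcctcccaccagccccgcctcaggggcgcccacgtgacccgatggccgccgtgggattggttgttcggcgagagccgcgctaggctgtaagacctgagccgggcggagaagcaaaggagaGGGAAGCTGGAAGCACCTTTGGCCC
The deposited SNHG7, SNHG8 and SNHG30 transcripts began 9, 3 and 25 bases after the RefSeq start, so 41, 47 and 25 bases of the windows belong to them. Both deposited SLC9A3-OT1 transcripts began 144 bases before the RefSeq start, and 194 bases of that window lie inside their span. G and C made up 82.7% of the SLC9A3-OT1 window, 75.3% of the SNHG7 window, 62.3% of the SNHG8 window and 62.7% of the SNHG30 window. The other SNHG7 transcript, which had reads in both precipitates, starts at the same base as the one at 0, so this stretch does not tell them apart. In all, 13 of the 42 transcripts and 18 of the 67 others began inside such a window on the same strand.

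One transcript held most of the Input reads. NONHSAT088493.2, on the plus strand at chr3:15680273-15738746, had 4276 Input reads (2211 FPKM, fragments per kilobase of transcript, scaled to the sequencing depth) and 0 reads in IgG and in Flag-FAK. Its span of 58474 bases covers part of BTD, which encodes biotinidase, on the same strand, and part of ANKRD28 on the opposite strand. It also covers RN7SL4P, a pseudogene of 7SL, the RNA of the signal recognition particle, and MIR3134. These reads were 80.0% of the 5344 Input reads of the 42 transcripts, which left 1068 reads for the other 41. Per read, NONHSAT088493.2 had 0.517 FPKM, the highest value of the 42, against a median of 0.191 for the others. FPKM per read falls with the length of sequence counted, so the length used for this transcript was short although its span is long. Which part of the span gave the reads was not tested, since the files hold no read positions.

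SLC9A3-OT1, an overlapping transcript of the sodium/hydrogen exchanger gene SLC9A3, was listed as 2 transcripts with the same name and the same span, chr5:470512-473109 on the minus strand. The first had 164 Input reads (9.06 FPKM) and the second 116 (5.75 FPKM), with 0 reads of each in IgG and Flag-FAK. The span overlaps SLC9A3 on the same strand, and SLC9A3-AS1 starts on the other strand within 1000 bases of its first base. Without read positions the reads of SLC9A3-OT1 cannot be told apart from those of SLC9A3. Without stated strand handling they cannot be told apart from any of SLC9A3-AS1 that overlap the span. Summed over the locus, 280 Input reads stood against 0 in both precipitates.

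The snoRNA hosts carry snoRNAs, most of which guide chemical modification of ribosomal or spliceosomal RNA, and SNORA17A and SNORA17B lie in SNHG7, SNORA24 in SNHG8, SNORA9 in SNHG15 and SNORD7 in SNHG30. The SNHG7 transcript NONHSAT135575.2 had 143 Input reads (13.8 FPKM) and 0 in both precipitates. SNHG8:9, at chr4:118278765-118279813 on the plus strand, had 41 Input reads (9.24 FPKM) and 0 in both. The SNHG15 transcript NONHSAT120412.2 had 21 Input reads (2.99 FPKM) and that of SNHG30, NONHSAT053108.2, had 15 (3.51 FPKM), again with 0 in IgG and Flag-FAK. Only for SNHG8 and SNHG30 was this the reading of the gene as listed, since SNHG7 and SNHG15 each had another transcript with precipitate reads.

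The next transcripts by Input reads lay on genes named as LINC, -AS or -DT or on other lncRNA genes. The LINC03057 transcript ENST00000433510.2 on chromosome 17 had 37 Input reads (4.83 FPKM), and the EPIST transcript NONHSAT103894.2 on chromosome 5 had 32 (5.46 FPKM). The span of ENST00000433510.2 also overlaps LINC02086, which starts on the other strand within 1000 bases of its first base. That of NONHSAT103894.2 also overlaps PITX1-AS1. Which of the overlapping genes gave the reads was not tested. The transcript lnc-FOXM1-2:3, on LOC124902859 of chromosome 12 and overlapping TEAD4, had 28 (4.55 FPKM). LINC00476:1, on ERCC6L2-AS1 and antisense to ERCC6L2, had 27 (4.49 FPKM). Each of these had 0 reads in both precipitates.

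Of the transcripts on -DT genes, CAMSAP1-DT (lnc-KCNT1-1:2) had 23 Input reads (5.11 FPKM) and RASSF10-DT (NONHSAT018091.2) had 19 (3.01 FPKM). The span of NONHSAT018091.2 also overlaps RASSF10, and no RefSeq gene on the other strand started within 1000 bases of its first base. APTR:1, from a lncRNA gene that starts beside RSBN1L and is named for regulation of p21, had 23 (3.26 FPKM). NONHSAT144529.2 (LOC101930112) had 18 Input reads (2.98 FPKM) and NONHSAT143108.2 (LOC124903701, beside PLEKHG4) had 17 (6.11 FPKM), both on chromosome 16. The remaining 27 transcripts lay close together, at 10 to 17 Input reads and 1.99 to 5.95 FPKM. They include transcripts of the -DT genes FMNL1-DT, MAP4K3-DT, GARS1-DT and FLVCR1-DT, of the -AS genes THUMPD3-AS1 and SERTAD4-AS1, and of LINC00467, LINC00662, LINC00630 and LINC01547. They also include MINCR, named as induced by the transcription factor MYC, DGCR5 of the DiGeorge critical region, NALT1 beside NOTCH1, and ERVK13-1, from an endogenous retrovirus. SMG1P3 and SMG1P4 are pseudogenes of SMG1, a kinase of nonsense-mediated decay, and were listed with 16 Input reads and with 16 and 12 on 2 transcripts, respectively. Reads of these near-identical copies can be divided among them and SMG1 by the counting, so their values are uncertain. In 16 of the 42 transcripts, and in 20 of the 67 others, a RefSeq gene on the other strand started within 1000 bases of the first base.

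At the minimum of 10 reads, the 4 transcripts just inside were those of ERVK13-1, SERTAD4-AS1, LOC100130027 and LOC102725228, at 2.02 to 3.73 FPKM. Another 10 named transcripts with 9 Input reads and 0 in both precipitates fell just outside, among them those of HNRNPD-DT and SLC25A25-AS1 and a second SERTAD4-AS1 transcript. In all, 43 named transcripts had fewer than 10 Input reads and 0 in both precipitates.

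Whether 0 reads was fewer than the read totals imply depended on which totals were compared. The listed transcripts held 2056854 Input reads, 109658 IgG reads and 48763 Flag-FAK reads, and transcripts of the ribosomal DNA locus and 7SK took 99.3%, 96.7% and 97.2% of them. Without these, 13782, 3669 and 1351 reads were left. The 42 transcripts held 38.8% of that Input total. The transcript called 7SK here is lnc-FBXO9-1:1, whose span overlaps RN7SK, GSTA9P and GSTA4. Which part of that span gave its reads was not tested. Expected reads were computed as Input reads times the ratio of the totals without ribosomal DNA and 7SK, which gave 26.6 IgG reads and 9.80 Flag-FAK reads per 100 Input reads. The limit of a count of 0 was set at 3 reads, for counting error only. A transcript thus needed more than 11.3 Input reads for its 0 in IgG to pass the limit, and more than 30.6 for Flag-FAK. A count of 0 just past the limit can still arise from counting error.

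On that scale 34 of the 42 transcripts had more than 3 reads expected in IgG, with a median of 4.26 over the 42 (2.66 to 1138). In Flag-FAK, 7 of the 42 had more than 3 expected, with a median of 1.57 (0.980 to 419). For the other 35, 0 reads in Flag-FAK was within counting error on this scale. The 7 were NONHSAT088493.2, both SLC9A3-OT1 transcripts, NONHSAT135575.2 of SNHG7, SNHG8:9, LINC03057 and EPIST. For background, among all 97 named transcripts with more than 3 reads expected in IgG, 39 had 0 (40.2%), and among the 35 with more than 3 expected in Flag-FAK, 20 had 0 (57.1%). Reads at 0 were therefore common in both precipitates beyond the 42: of the 109 named transcripts, 48 had 0 reads in IgG (44%) and 81 in Flag-FAK (74.3%), and a further 20 and 11 had 1 to 3 reads.

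NONHSAT088493.2 had 1138 reads expected in IgG and 419 in Flag-FAK, so it was at least 379-fold and at least 140-fold lower than the totals imply. The SLC9A3-OT1 locus had 74.5 expected in IgG and 27.4 in Flag-FAK, at least 24.8-fold and at least 9.15-fold lower. For SNHG8, 10.9 and 4.02 were expected, at least 3.64-fold and at least 1.34-fold lower. The first of these was far past the limit, and SNHG8 in Flag-FAK was close to it. LINC03057 and EPIST were closer still in Flag-FAK. They had 3.63 and 3.14 reads expected, at least 1.21-fold and at least 1.05-fold lower.

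Other scales gave other counts. With the totals of all listed transcripts, ribosomal DNA and 7SK included, 5.33 IgG reads and 2.37 Flag-FAK reads were expected per 100 Input reads. Then only 4 of the 42 passed 3 expected reads in IgG (NONHSAT088493.2, both SLC9A3-OT1 transcripts and NONHSAT135575.2) and 3 in Flag-FAK (these without the smaller SLC9A3-OT1 transcript). NONHSAT088493.2 then had 228 and 101 reads expected, at least 76.0-fold and at least 33.8-fold lower, and the SLC9A3-OT1 locus 14.9 and 6.64.

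The deposited FPKM gave another scale. The FPKM per read of the same transcript was 1.08 times that of Input in IgG (median of 64 transcripts, 0.893 to 1.18) and 1.04 times in Flag-FAK (34 transcripts, 0.867 to 1.23), so the totals behind the FPKM were nearly equal. Equal FPKM would then give 92.9 and 96.2 reads per 100 Input reads, and all 42 transcripts had more than 3 expected in each precipitate. On this scale the listed transcripts together were also lower in the precipitates. The listed reads were at most 21.7% of the total behind the FPKM for Input, 1.28% for IgG and 0.593% for Flag-FAK. Most of these reads were of ribosomal DNA and 7SK, so the shares mainly describe those transcripts. Without them 13782, 3669 and 1351 reads were left in Input, IgG and Flag-FAK. Which scale is right cannot be told from these files, which hold no spike-in and no amounts of retrieved RNA.

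NONHSAT088493.2 alone moved the counts. Without it in the totals, a comparison chosen after the values were seen, 42 and 11 of the 42 transcripts had more than 3 reads expected in IgG and Flag-FAK. Without any of the 42 in the totals the counts were 42 and 13.

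Over all 109 named transcripts, the totals without ribosomal DNA and 7SK imply that 0.462 transcripts would be at 0 in both precipitates if every transcript kept the ratio of the totals, and 42 were found. With the totals of all listed transcripts the expected number was 22.2. With the median ratio of 30 transcripts that had reads in all 3 libraries it was 1.07. These expected numbers cover counting error only and leave out that the ratio differs between transcripts. That difference was wide: among the transcripts with 100 or more Input reads, MIR4435-2HG:1 had 194, 3 and 3 reads in Input, IgG and Flag-FAK, and PICSAR had 275, 11 and 18, all below the 26.6 and 9.80 per 100 of the totals. Above them were the longer transcript over ANXA8 in IgG, with 112 Input and 50 IgG reads, and NONHSAT146422.2, with 1536, 387 and 191 reads, in Flag-FAK.

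The share at 0 fell with Input reads up to 99 reads. Of 24 transcripts with 10 to 14 Input reads, 17 were at 0 in both (70.8%), of 50 with 15 to 29 it was 18 (36%), and of 23 with 30 to 99 it was 3 (13.0%). In the last group, of 12 transcripts from 100 reads upwards, 4 were at 0 (33.3%): NONHSAT088493.2, both SLC9A3-OT1 transcripts and NONHSAT135575.2. With the totals of all listed transcripts, 9.82 and 11.5 transcripts were expected at 0 in the lower 2 groups, and 0.867 and 0.000351 in the upper 2. The 12 transcripts of the last group include lnc-FBXO9-1:1, the transcript over RN7SK.

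**Figure D1:**
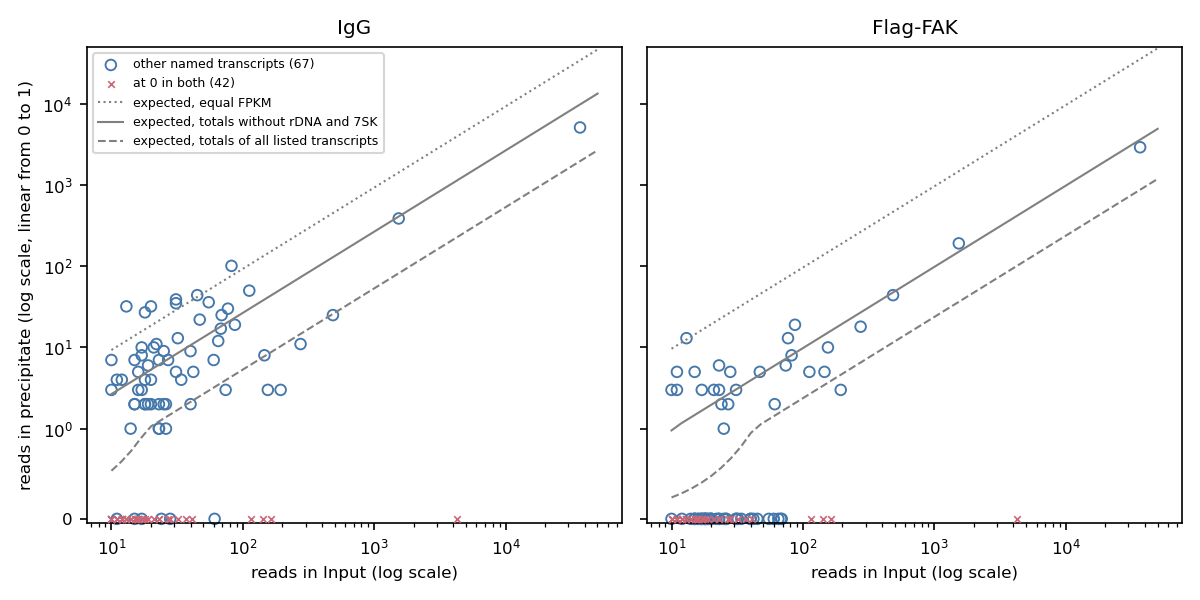
Reads in IgG (left) and Flag-FAK (right) against reads in Input for the 109 named transcripts, log axes with the vertical axis linear from 0 to 1: crosses are the 42 transcripts at 0 in both, circles the 67 others, and lines the reads expected on 3 scales. Crosses reach 4276 Input reads, and the circle at 36842 Input reads is lnc-FBXO9-1:1, whose span overlaps RN7SK.

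Among unnamed transcripts the share at 0 was higher. Of 53 transcripts with at least 10 Input reads and only an assembly identifier, 33 were at 0 in both precipitates (62.3%), 35 in IgG (66%) and 43 in Flag-FAK (81.1%). The named and unnamed transcripts were not matched for Input reads, with which the share at 0 varied.

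A count of 0 on 1 transcript was not always 0 over its locus. Of the 42 transcripts, 11 had another listed transcript in the same locus, over 9 loci, and in 6 of these loci the other transcript had precipitate reads. SNHG7:1 shares its span with NONHSAT135575.2 and had 485 Input, 25 IgG and 44 Flag-FAK reads. Over the SNHG7 locus, 628 Input reads stood against 25 and 44, where the totals without ribosomal DNA and 7SK imply 167 and 61.6. The SNHG15 transcript NONHSAT120414.2 had 146 Input, 8 IgG and 5 Flag-FAK reads beside the 21 Input reads of NONHSAT120412.2. Both snoRNA hosts thus had reads in both precipitates as genes, and their transcripts at 0 held 22.8% and 12.6% of the Input reads of the locus.

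The other 4 such loci were those of ERCC6L2-AS1, NALT1, CASC8 and ANXA8. The second ERCC6L2-AS1 transcript had 15 Input, 7 IgG and 0 Flag-FAK reads, fewer Input reads than the 27 of the one at 0. The second NALT1 transcript had 34, 4 and 0. The CASC8 transcript at 0 had 12 Input reads, beside others with 47, 22 and 5 and with 0, 7 and 0 reads in Input, IgG and Flag-FAK. The transcript over ANXA8, a member of the annexins, had 12 Input reads beside one with 112, 50 and 5. ANXA8 has a near-identical copy, ANXA8L1, so these reads are uncertain. How reads were divided between transcripts of a locus is not given in the sources used here.

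The remaining 34 loci were at 0 in both precipitates over all their listed transcripts. At the SLC9A3-OT1 locus and at LOC101927793, both listed transcripts were among the 42, with 280 and 33 Input reads per locus. LOC101927793 had 8.79 reads expected in IgG and 3.23 in Flag-FAK. SERTAD4-AS1 had 10 and 9 Input reads on 2 transcripts and 0 elsewhere.

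The coding scores of the 42 transcripts overlapped those of the 67 others over most of their range. CPC and CNCI score coding potential from similarity to proteins and from codon composition, with values below 0 called non-coding, and CPAT gives a coding probability from sequence features. Every one of the 42 and of the 67 had CPC and CNCI scores below 0, as lncRNA lists are selected to have. The median CPC score was -1.02 (-1.28 to -0.0858) in the 42 and -0.989 in the 67, and the median CNCI score -0.0492 and -0.0455. The median CPAT coding probability was 0.0366 (0.000388 to 0.328) in the 42, 0.0447 in the 67 and 0.0270 over all 334.

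A CPAT probability above 0.1 was found for 13 of the 42 (31.0%) and 17 of the 67 (25.4%), and below 0.01 for 6 and 10. LINC03057 had the highest of the 42, at 0.328, followed by EPIST at 0.270 and APTR at 0.255. GARS1-DT had the CPC score nearest to 0, at -0.0858, with a CPAT probability of 0.0265, so the scores did not rank the same transcripts highest. Among the 12 transcripts with at least 20 Input reads the median CPAT probability was 0.113, against 0.0429 in 44 of the others. NONHSAT088493.2 had a CPC score of -1.28, the lowest of the 42, and a probability of 0.0601. Transcripts of 1 locus share sequence, so these medians were not tested.

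The 42 had fewer Input reads than the 67, with a median of 16 against 25, and a lower median abundance, 3.07 FPKM against 4.45. Both follow in part from the rule, because a transcript with few reads is more often at 0. The median span was 2934 bases against 3730.

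Lists of lncRNAs with known roles were looked up by gene symbol, and few of the genes found had a transcript among the 42. The loci left out by the rule include those of GAS5, SNHG12 and VPS9D1-AS1. Transcripts of these genes could therefore not be among the 42, whatever their reads. Of 14 snoRNA host genes, 10 were listed, and SNHG7, SNHG8 and SNHG15 each had a transcript among the 42. GAS5, a snoRNA host that accumulates in growth-arrested cells, had 758 Input, 314 IgG and 46 Flag-FAK reads over 4 transcripts. SNHG6 had 88, 114 and 8, and SNHG1 133, 67 and 17. SNHG8, with 41, 0 and 0, was the only one of the 10 with at least 10 Input reads and none in either precipitate over the gene. Of 8 nuclear lncRNAs only HOTAIR was listed (7, 0 and 0 reads), and of 6 cytoplasmic ones only CYTOR (7, 0 and 0), both under the minimum of 10. Of 6 miRNA hosts 3 were listed, none among the 42. From the lncRNAs that the study tested by RIP, which it chose on these libraries, 5 genes were looked up (a part of those tested). Of these, 4 were found, and SNHG7 had a transcript among the 42, although the form tested was SNHG7:1 and not NONHSAT135575.2. MMP24-AS1, which the study tested as MMP24-AS1:3, was not found under that symbol and may be listed under another name.

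The authors' table also lists predicted target genes with their pathway annotation, which the rule did not use. For 7 of the 42 transcripts (16.7%) and 13 of the 67 others (19.4%), at least 1 predicted target was annotated to focal adhesion. All of those of the 42 were predicted in trans, that is, away from the gene. EPIST was paired with ACTN3, an actin crosslinker, and PAK4, a kinase of the cytoskeleton, and MINCR with LAMA4 and TNXB, proteins of the extracellular matrix. SERTAD4-AS1 was paired with the integrin gene ITGA9, NONHSAT143108.2 with the adaptor gene SHC2 and the LOC102725228 transcript with VWF. NONHSAT088493.2 and NONHSAT018091.2 were each paired with AC004953.1. These are predictions and no measurement of the libraries.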

How the data were processed

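RNA-seq libraries of Input, IgG and Flag-FAK, 1 per condition, were assigned from GEO's labels. The authors deposited, per library, an FPKM and a whole-number read count for 334 lncRNA transcripts on 7007 lines, 1 per predicted target gene, and each transcript was used once here. The deposited tables also give CPC and CNCI scores and the CPAT coding probability as a fraction, equal in all 3 libraries. The submitters' processing notes name StringTie and GRCh38. The aligner, the strand setting and the versions are not given in the sources used here. Whole numbers may be rounded estimates. The sums cover listed lncRNAs and are not library depths.

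The transcripts and gene lists were chosen with earlier results of these data known. The 15 transcripts with the most Input reads are given in full, then those at the minimum of 10. Genes were named by symbol or by position on RefSeq's GRCh38.p14 annotation, which also gave the windows. Expected reads are Input reads times a ratio of totals. The expected number at 0 in both is the sum over transcripts of exp(-(IgG + Flag-FAK expected reads)). Both were tested on simulated data. No test between conditions was made, so no p-value is given. Alternatives were other minimums, scales, locus sums and overlap rules. The scripts ran under Python 3.11.15 with pandas 2.3.3 and numpy 2.4.6, and the plots were drawn with matplotlib 3.10.9.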

Additional observations from a re-analysis of the deposited data

How the results depend on the processing

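No paired analysis was possible because there was 1 library per condition, and no library could be left out. With minimums of 5 and 20 Input reads, 81 and 12 transcripts were chosen in place of 42. Taking 0 FPKM in place of 0 reads left the count at 42, leaving out no locus gave 47, and sums over each locus gave 34 loci. Transcripts with more than 3 reads expected in IgG and Flag-FAK numbered 34 and 7, against 4 and 3 with the totals of all listed transcripts, 42 and 42 with equal FPKM, 42 and 13 without the 42 transcripts in the totals, 22 and 7 with the median ratio of 30 transcripts, and 42 and 11 without NONHSAT088493.2, a setting chosen after the data were seen. The expected number at 0 in both, 0.462, became 22.2, 4.3e-08, 0.0326, 1.07 and 0.0689 under these settings in the same order. The 30 transcripts were chosen for having reads in both precipitates. The median CPAT probability was 0.113 with a minimum of 20 Input reads and 0.0366 with 1 transcript per locus. Precipitate reads on another transcript were found for 6 of the 42 by locus or overlap on the same strand, and for 7 by overlap on either strand. At 10 to 17 Input reads, 0 reads in Flag-FAK lay within counting error on the totals without ribosomal DNA and 7SK.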
